A study of Homo sapiens with 2 samples.

Results

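Long noncoding RNA (lncRNA) genes whose both ends lie more than 10 kb from any protein-coding gene span were examined for TCF19 antibody peaks at their ends. RefSeq (GRCh38.p14) lists 17795 lncRNA genes on chromosomes 1 to 22, and 8224 of them met this rule; they are called isolated lncRNA genes here. The rule uses gene positions only and no peak value. Their median length was 10891 bp, from 200 to 894025 bp, and the median distance of the nearer end to a coding gene was 86324 bp. Of the 8224, 50 had a whole coding gene inside their span, and 1314 had an end within 2000 bp of an end of another isolated lncRNA gene, so neighbours can share a peak.

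The peaks come from chromatin immunoprecipitation and sequencing (ChIP-seq) with an antibody against TCF19, a nuclear protein that carries a PHD finger, in the Ishikawa line, which was established from an endometrial cancer. One population was infected with a control lentivirus (genotype label negative control) and the other with a lentivirus that over-expresses TCF19, and both were selected with puromycin. Each group had 1 library and no replicate, so no test of the condition was possible. Intervals throughout are at 95% and reflect counting error alone, and reads without molecular identifiers are not independent molecules. The amount of TCF19 and the identity of the cells cannot be read from peak lists.

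On chromosomes 1 to 22 the control list held 162409 summits (the highest point of each peak) and the overexpression list 107758. The number of reads at an average genome position, recovered from the peak statistics, was 1.58 in control and 1.43 in overexpressing cells, 0.903 of control. The median summit had 12 reads in control and 13 in overexpressing cells. Local read density above 3 times the genome average was found at 9.76% of control and 16.06% of overexpression summits. No input library is named in the sources used here, and how well each region is recovered or sequenced was not tested.

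lncRNAs are transcripts that do not encode protein. Some act in the nucleus on chromatin or splicing, some bind proteins or microRNAs in the cytoplasm, and some are known mainly as the precursors of microRNAs or small nucleolar RNAs. Their genes start at promoters like those of coding genes, and a part of these promoters lies in CpG islands, stretches rich in G, C and the dinucleotide CG that are typical of promoters active in many tissues. Genes far from any coding gene are useful here because a peak at their end cannot come from the promoter of a neighbouring coding gene within 10 kb.

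Among starts of isolated lncRNA genes, those of the CpG-rich kind most often had a peak, so start sequences are shown first (RefSeq, GRCh38.p14, from 250 bases before to 50 after the listed start). Capitals mark GC boxes (GGGCGG) and CCAAT and TATAAA boxes, searched on both strands with overlapping copies counted. The first 6 are CpG-rich starts of well-known genes with a summit within 1000 bp in both libraries. MALAT1 makes an abundant RNA of nuclear speckles, NORAD an RNA that binds Pumilio proteins, and DANCR an RNA known for restraining differentiation. MIR17HG and MIR31HG are host genes of microRNAs, and DLEU1 lies in a region often deleted in leukaemia. The last 2, MIR100HG (a microRNA host) and LINC01016, are starts outside the CpG-rich class with no summit near either gene end in either library.
MALAT1: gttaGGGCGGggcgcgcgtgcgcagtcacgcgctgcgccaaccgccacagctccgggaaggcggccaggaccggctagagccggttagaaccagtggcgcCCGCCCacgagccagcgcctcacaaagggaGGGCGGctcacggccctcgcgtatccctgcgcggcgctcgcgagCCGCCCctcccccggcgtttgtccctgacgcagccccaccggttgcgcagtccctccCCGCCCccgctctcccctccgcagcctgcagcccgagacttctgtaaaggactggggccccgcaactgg
NORAD: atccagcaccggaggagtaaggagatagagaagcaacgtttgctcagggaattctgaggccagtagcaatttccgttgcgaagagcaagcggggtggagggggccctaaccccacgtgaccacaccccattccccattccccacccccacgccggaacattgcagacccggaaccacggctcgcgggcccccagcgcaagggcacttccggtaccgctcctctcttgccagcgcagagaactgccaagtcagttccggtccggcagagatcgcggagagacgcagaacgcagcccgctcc
DANCR: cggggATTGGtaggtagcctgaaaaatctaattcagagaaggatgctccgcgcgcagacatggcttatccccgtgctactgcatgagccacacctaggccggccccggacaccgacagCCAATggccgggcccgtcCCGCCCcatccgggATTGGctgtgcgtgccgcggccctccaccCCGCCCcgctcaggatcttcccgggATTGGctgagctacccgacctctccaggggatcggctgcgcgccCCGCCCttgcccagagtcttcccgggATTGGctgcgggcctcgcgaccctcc
MIR17HG: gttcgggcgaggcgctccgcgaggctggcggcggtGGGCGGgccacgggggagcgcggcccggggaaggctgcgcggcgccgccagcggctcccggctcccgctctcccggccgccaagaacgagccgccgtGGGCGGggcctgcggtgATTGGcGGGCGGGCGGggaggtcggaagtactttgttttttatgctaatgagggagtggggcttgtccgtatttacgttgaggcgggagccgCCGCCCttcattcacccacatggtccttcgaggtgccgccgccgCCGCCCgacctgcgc
MIR31HG: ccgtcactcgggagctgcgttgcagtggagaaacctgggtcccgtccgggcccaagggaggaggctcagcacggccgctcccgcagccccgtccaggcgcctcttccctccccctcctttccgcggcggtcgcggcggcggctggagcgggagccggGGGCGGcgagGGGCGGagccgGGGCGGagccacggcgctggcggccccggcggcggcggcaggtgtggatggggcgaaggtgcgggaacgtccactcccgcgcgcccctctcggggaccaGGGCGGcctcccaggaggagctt
DLEU1: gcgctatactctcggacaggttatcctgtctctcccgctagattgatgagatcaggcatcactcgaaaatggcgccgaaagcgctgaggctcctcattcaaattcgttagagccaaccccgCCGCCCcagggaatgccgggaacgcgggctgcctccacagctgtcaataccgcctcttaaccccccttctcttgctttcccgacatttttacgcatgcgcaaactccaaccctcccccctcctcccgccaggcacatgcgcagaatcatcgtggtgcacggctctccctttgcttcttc
MIR100HG: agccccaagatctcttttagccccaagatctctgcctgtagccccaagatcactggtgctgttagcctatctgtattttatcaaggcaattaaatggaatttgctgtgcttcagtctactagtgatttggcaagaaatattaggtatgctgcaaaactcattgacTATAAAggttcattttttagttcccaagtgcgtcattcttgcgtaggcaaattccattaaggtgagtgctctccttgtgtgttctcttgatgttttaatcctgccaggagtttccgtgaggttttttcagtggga
LINC01016: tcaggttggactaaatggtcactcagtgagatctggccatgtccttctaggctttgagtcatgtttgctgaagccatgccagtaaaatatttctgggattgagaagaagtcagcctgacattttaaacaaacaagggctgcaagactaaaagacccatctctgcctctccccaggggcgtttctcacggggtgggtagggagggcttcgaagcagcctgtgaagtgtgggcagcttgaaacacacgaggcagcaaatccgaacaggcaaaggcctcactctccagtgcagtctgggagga

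These windows are chr11:65497488-65497787, plus strand for MALAT1; chr20:36050911-36051210, minus strand for NORAD; chr4:52712144-52712443, plus strand for DANCR; chr13:91347437-91347736, plus strand for MIR17HG. They are chr9:21559749-21560048, minus strand for MIR31HG; chr13:50081919-50082218, plus strand for DLEU1; chr11:122422822-122423121, minus strand for MIR100HG; chr6:33896858-33897157, minus strand for LINC01016. The MIR17HG window held 42 CG dinucleotides and 6 GC boxes, MIR31HG 39 and 4, and MALAT1 37 and 5. DANCR held 27 CG dinucleotides, 3 GC boxes and 5 CCAAT boxes. NORAD had 23 CG dinucleotides and DLEU1 21, with 0 and 1 GC boxes. MIR100HG had 3 and LINC01016 had 5, with no GC box in either. In MALAT1 the overexpression summit (14 reads, interval 7.7 to 23.5) stood 163 bases upstream of the start, inside the printed window, and the control summit (11 reads, 5.5 to 19.7) 581 bases downstream. In MIR31HG the control summit (10 reads, 4.8 to 18.4) stood 1 base upstream of the start and the nearest overexpression summit (18 reads, 10.7 to 28.4) 139 bases downstream. At both genes the counting intervals of control and overexpressing cells overlapped.

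Of the 8224 isolated lncRNA genes, 2270 (27.6%, Wilson interval 26.65 to 28.58) had a summit within 1000 bp of either end in control and 1787 (21.73%, 20.85 to 22.63) in overexpressing cells. Over all 56756 RefSeq genes of these chromosomes the shares were 38.1% and 39.4%. Isolated lncRNA genes therefore had gene-end summits less often than the average gene in each library. The level at other positions was obtained by moving each gene, with both its ends, over its own chromosome in steps of 1 kb, keeping both ends more than 10 kb from coding genes. This placement gave a mean of 1220.5 genes (14.84%) in control and 712.2 (8.66%) in overexpressing cells. The observed counts were 1.86 times (1.8 to 1.93) and 2.51 times (2.41 to 2.61) those means. The ratios moved with the choice of positions by more than these counting intervals. They were 1.45 and 1.75 over all positions, and 1.64 and 2.21 without summit-free stretches of 500 kb. Against positions more than 10 kb from any gene they were 2.29 and 3.22.

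Among isolated lncRNA genes more had a summit in control, and among coding genes more had one in overexpressing cells. Of 19126 coding genes, 54.4% had one in control and 65.1% in overexpressing cells. The 9571 lncRNA genes with an end within 10 kb of a coding gene stood between, with 39.64% (38.66 to 40.62) and 41.15% (40.16 to 42.13). The order of the libraries at isolated lncRNA genes moves with the length of the control list. When as many summits of highest fold were taken from control as the overexpression list holds, 20.15% of isolated lncRNA genes had one in control, below the 21.73% of the overexpression library.

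**Figure D1:**
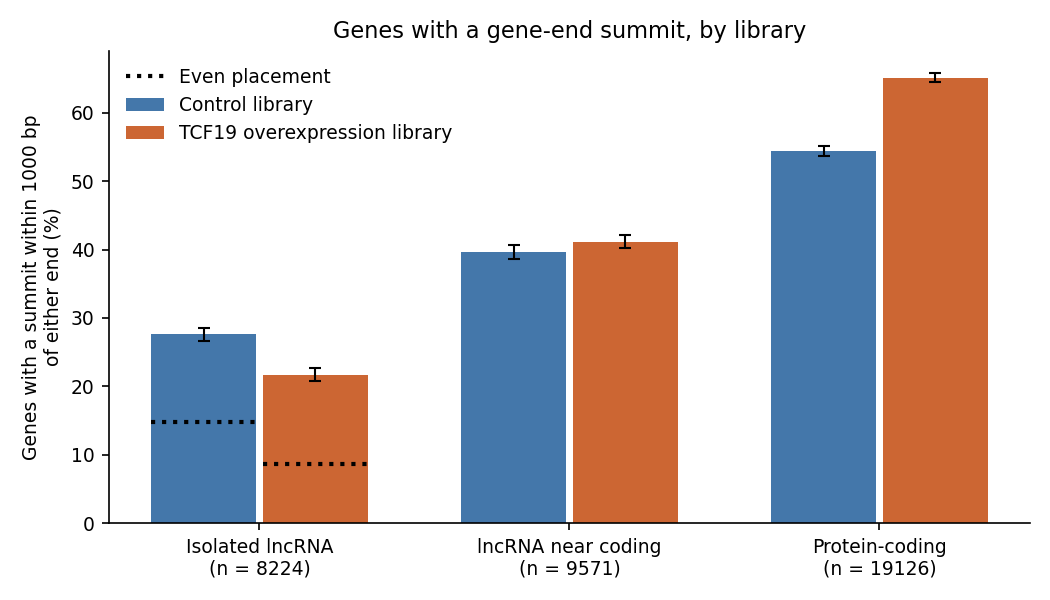
Share of genes (%) with a summit within 1000 bp of either end, by gene set and library (1 library each). Error bars are 95% Wilson intervals and dotted lines the mean over even placement of the isolated lncRNA genes; their bars stand at 27.6% and 21.73%, above placement means of 14.84% and 8.66%.

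Most isolated lncRNA genes had no gene-end summit in either library, 5557 of 8224 (67.57%). Both libraries had one at 1390 genes (16.9%, 16.11 to 17.73), against 29.8% of all RefSeq genes and a placement mean of 540.5 genes. In overexpressing cells alone 397 genes had one (4.83%, 4.38 to 5.31), against 9.61% of all RefSeq genes and a placement mean of 171.8. Control alone had one at 880 genes (10.7%, 10.05 to 11.39), against 8.36% of all RefSeq genes and a placement mean of 680. The count in control alone was thus 1.29 times its placement mean (1.22 to 1.38), while the count in both libraries was 2.57 times (2.45 to 2.7) and that in the overexpressing cells alone 2.31 times (2.1 to 2.54). Coding genes had 48.7% in both, 16.4% in the overexpressing cells alone and 5.64% in control alone, with the overexpressing cells ahead of control. At isolated lncRNA genes control was ahead, but this turned with equal numbers of summits, to 7.22% in control alone and 8.8% in the overexpressing cells alone. A peak of equal height would have been called in control with a probability of at least 0.95 at 165 of the 397 genes, and in overexpressing cells at 149 of the 880, so among such peaks control was not ahead either.

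The distinct summits at these ends numbered 2704 in control, 1.66% of the list, and 2096 in overexpressing cells, 1.95% of the list. In control 148 of them, and in overexpressing cells 143, lay at ends of 2 or more isolated lncRNA genes. They were of ordinary height, with medians of 13 and 14 reads and 95th percentiles of 22 and 24. The median fold enrichment over local background, the authors' value, was 3.87 in control, equal to the median of the whole control list, and 4.17 in overexpressing cells, where the whole list had 4.05. Local density above 3 times the genome average was found at 10.32% and 14.07% of them.

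The peaks lay more often at the start of the gene than at its stop. Strand was known for 4888 isolated lncRNA genes, from a promoter table that gave no start sequence for any of the 432 on chromosome 8. In control 20.42% of starts (19.31 to 21.57) and 10.66% of stops (9.82 to 11.55) had a summit within 1000 bp, and in overexpressing cells 17.82% of starts (16.77 to 18.92) and 7.34% of stops (6.65 to 8.11). Positions every 1 kb, more than 10 kb from coding genes, had one at 8.22% in control and 4.78% in overexpressing cells. Starts were thus at 2.48 and 3.73 times, and stops at 1.3 and 1.54 times, the level of such positions. In short genes the windows at start and stop overlap, so a summit near the start can also count at the stop. In the 4375 genes too long for this, stops were at 1.19 times that level (9.81%) in control. In overexpressing cells they were at 1.39 times (6.65%). Starts of these genes were at 2.41 and 3.65 times. At coding genes with known strand, 50.04% of starts and 12.4% of stops had a summit in control, and 62.5% and 11.63% in overexpressing cells. Coding and isolated lncRNA genes thus differed much more at their starts than at their stops.

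Around the start, summits were densest in the 500 bp downstream of it, with 83.47 per 1000 starts in control and 84.08 in overexpressing cells. In the 500 bp upstream the values were 69.15 and 62.6. The libraries were thus close downstream of the start. The upstream densities rest on counts of 338 for control and 306 for overexpression, and whether these differ was not tested. The overexpression list is also the shorter one. Within 500 bp of the start its density was 3.88 times that of its bins farther than 5000 bp away, against 2.52 times for control. Farther than 5000 bp from the start, control had 30.31 summits per 500 bp bin and the overexpression library 18.88, above the 22.39 and 13.06 of the genome more than 10 kb from coding genes. Within 500 bp of the stop the density was 23.52 in control and 17.19 in overexpressing cells, 0.78 and 0.872 times that of the bins farther than 5000 bp from the stop. Stops therefore stood in neighbourhoods with somewhat more summits than the isolated genome, with fewer directly at the stop than around it.

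**Figure D2:**
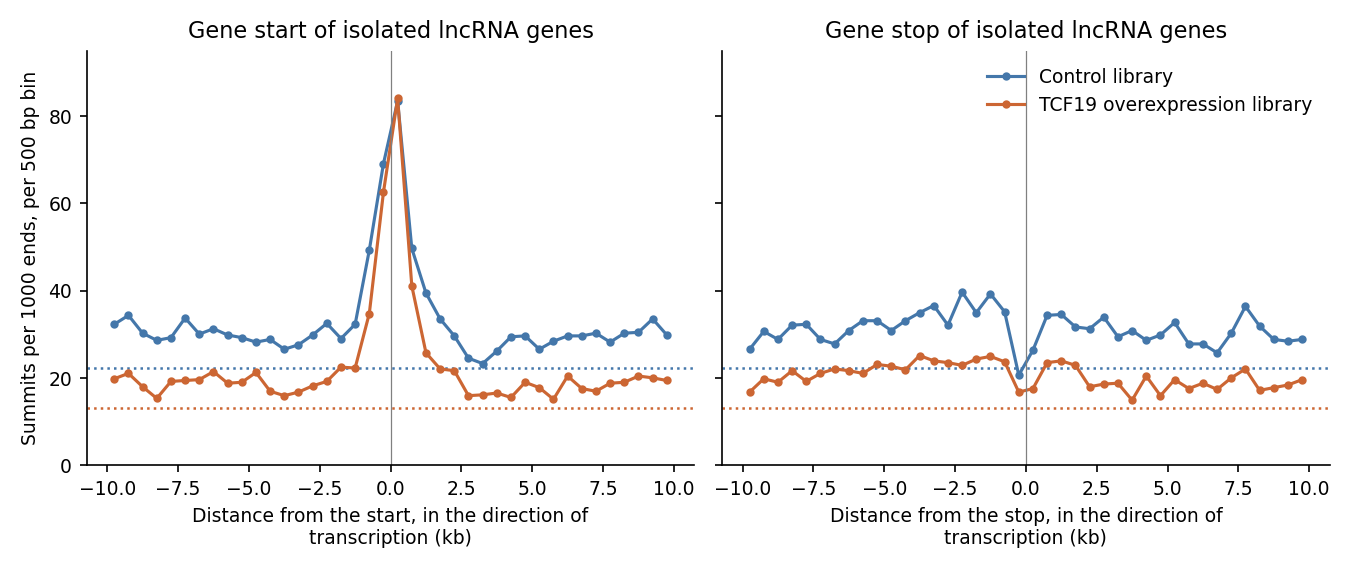
Summits per 1000 gene ends in bins of 500 bp, against the distance (kb, in the direction of transcription) from the start (left) or stop (right) of 4888 isolated lncRNA genes, 1 library per line. Dotted lines give the density in the genome more than 10 kb from coding genes; both libraries reach a maximum just downstream of the start, at 83.47 and 84.08, and neither has one at the stop.

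Starts of isolated lncRNA genes differed widely in how often they had a summit by their base composition. A start sequence was found for 4699 of them, none on chromosome 8, so results by start sequence leave that chromosome out. Of the 4699, 416 (8.85%) were CpG-rich. This was taken as at least 50% G and C and a CpG ratio (observed over that from the C and G content) of at least 0.6. Of these 416 starts, 276 (66.35%, 61.67 to 70.72) had a summit within 1000 bp in control and 305 (73.32%, 68.87 to 77.34) in overexpressing cells. Of the other 4283 starts, 674 (15.74%, 14.68 to 16.86) and 522 (12.19%, 11.24 to 13.2) had one. The libraries thus stood in opposite order in the 2 classes, but at CpG-rich starts their counting intervals overlapped.

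The same classes were compared at coding genes. Among coding genes 64.43% of starts were CpG-rich, and 62.61% of those (61.57 to 63.63) had a summit in control and 82.02% (81.19 to 82.83) in overexpressing cells. In control the intervals of CpG-rich starts of isolated lncRNA and coding genes overlapped. In overexpressing cells isolated lncRNA genes had a summit there less often, and the intervals did not overlap. Starts outside the class had a summit at 30.93% and 32.71% of coding genes, above the 15.74% and 12.19% of isolated lncRNA genes. CpG-rich starts at lncRNA genes near coding genes had one at 62.65% and 79.69%. Whether G and C content alters how many reads a region yields was not tested. With summits of high local density left out, the shares at CpG-rich starts of isolated lncRNA genes were 55.05% in control and 57.93% in overexpressing cells, and with as many control as overexpression summits the control share was 44.71%.

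**Figure D3:**
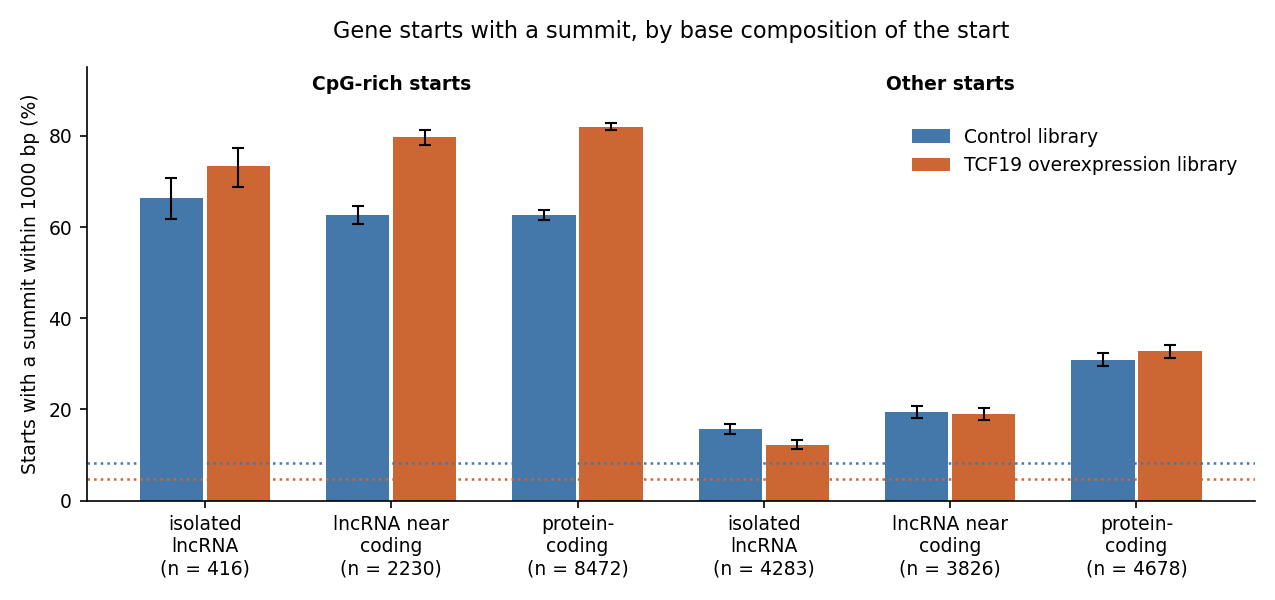
Share of gene starts (%) with a summit within 1000 bp, for CpG-rich and other starts of 3 gene sets, by library (1 each). Error bars are 95% Wilson intervals and dotted lines the share of positions more than 10 kb from coding genes (8.22% and 4.78%); the CpG-rich starts of isolated lncRNA genes reach 66.35% and 73.32%.

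At CpG-rich starts both libraries had a summit at 252 genes, the overexpression library alone at 53, control alone at 24 and neither at 87. At the other starts the counts were 370, 152, 304 and 3457. Summits also lay closer to CpG-rich starts. The median distance of the nearest summit was 180.5 bp in control and 163 bp in overexpressing cells, against 417.5 and 368.5 bp at other starts that had one. At CpG-rich starts it lay downstream in 47.46% (41.65 to 53.35) and 50.49% (44.91 to 56.06) of cases, so neither side was preferred within counting error. At other starts it lay downstream in 55.34% (51.57 to 59.05) and 60.54% (56.28 to 64.64).

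Short promoter motifs followed the base composition. A GC box, the site of SP-family factors, was in 44.95% of the 35116 promoters of the table, in 63.94% of the 416 CpG-rich starts of isolated lncRNA genes and in 7.94% of their other starts. Among CpG-rich starts it was in 66.23% of the 305 with an overexpression summit and in 55.17% of the 87 without a summit in either library. Among other starts it was in 23.95% of the 522 with an overexpression summit and in 5.24% of the 3457 without one in either library. The median G and C content of those starts was 54% and 42.7%, so the starts with summits outside the CpG-rich class were also richer in G and C. TATAAA went the other way, at 14.75% and 23.4% of these other starts, and at 11.53% of all promoters. CCAAT was in 31.8% and 39.66% of them, and in 34.61% of all promoters. Each motif was searched as these letters on both strands, and a match is a description of the sequence, not a binding site.

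The share of isolated lncRNA genes with a gene-end summit fell with distance from coding genes. From 10 to 50 kb it was 31.31% (29.67 to 33) in control and 26.91% (25.35 to 28.53) in overexpressing cells, over 2980 genes. From 50 to 200 kb it was 29.17% (27.53 to 30.86) and 21.3% (19.84 to 22.84), over 2873 genes. Beyond 200 kb it was 21.05% (19.45 to 22.73) and 15.73% (14.32 to 17.25), over 2371 genes, still 1.46 and 1.87 times the placement level. CpG-rich starts became rarer in the same order, from 13.61% to 7.03% and 5.51% of starts. Starts outside the CpG-rich class followed too, with 19.33%, 16.62% and 10.73% in control and 16.11%, 12.31% and 7.78% in overexpressing cells.

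**Figure D4:**
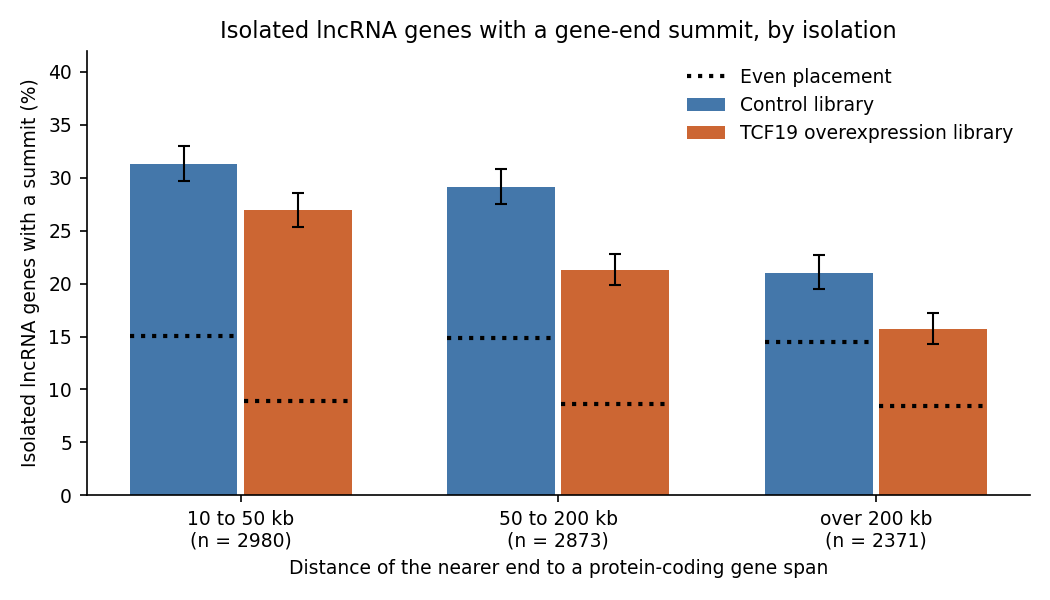
Share of isolated lncRNA genes (%) with a summit within 1000 bp of either end, by distance of the nearer end to a coding gene and by library (1 each). Error bars are 95% Wilson intervals and dotted lines the placement mean of the same genes; beyond 200 kb the bars stand at 21.05% and 15.73%.

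How well a gene is known also went with its peaks. Of the 2605 isolated lncRNA genes with a curated RefSeq transcript, 33.13% (31.35 to 34.96) had a summit in control and 28.6% (26.9 to 30.36) in overexpressing cells, against 25.04% and 18.54% of the 5619 with model transcripts only. CpG-rich starts made up 14.6% of the curated and 5.54% of the model genes. Host genes of small RNAs, by their symbols, had the highest shares of the symbol classes, 50.98% (37.68 to 64.14) and 49.02% (35.86 to 62.32) of 51 genes. Of 38 hosts with a start sequence, 15 were CpG-rich. The 1809 genes with a LINC symbol had 30.74% and 26.64%, and the 6006 with a placeholder LOC symbol 25.82% and 19.58%. By chromosome, the count over its placement mean ran from 1.5 on chromosome 12 to 2.66 on chromosome 22 in control. In the overexpression library it ran from 2.19 on chromosome 4 to 3.87 on chromosome 14, above 1 on each of the 22 chromosomes. The order moved with the placement level. In control 30.05% of genes on chromosome 12 and 29.69% on chromosome 22 had a summit, against placement shares of 20.09% and 11.15%. Placement included assembly gaps, and their part in this order was not tested.

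Known lncRNA genes were followed by name in 5 overlapping lists with 150 genes in all, of which 62 are isolated. Of these 62, 31 (50%) had a gene-end summit in control and 29 (46.77%) in overexpressing cells, 28 of them in both. Of the 8162 isolated lncRNA genes not on the lists, 27.43% had one in control and 21.54% in overexpressing cells. The placement means for the 62 were 8.7 and 5 genes. All 18 known genes with a CpG-rich start had a gene-end summit in both libraries, while 265 of the 416 isolated lncRNA genes with such a start did. Of the 23 known genes with another start, 6 had one in both libraries, MIAT had one in the overexpressing cells alone, and 16 had none. At the 28 genes with a summit in both libraries, those of highest fold lay within 100 bp of each other at 9, so most reads given side by side for a known gene belong to different positions. The lists are not a sample of all lncRNA genes, since 18 of their 41 genes with a start sequence were CpG-rich. They were also chosen with earlier results of these data known.

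All 5 isolated genes of the list of nuclear or abundant RNAs had a summit in overexpressing cells and 4 had one in control. The placement means were 0.4 and 0.7 genes. Of all isolated lncRNA genes, 21.73% and 27.6% had one. MALAT1 had 11 reads in control and 14 in overexpressing cells, at summits on either side of its start. NORAD had 11 (5.5 to 19.7) and 18 (10.7 to 28.4) at its summits of highest fold, 414 and 469 bases downstream of its start. DANCR had 17 (9.9 to 27.2) and 13 (6.9 to 22.2), and MEG3, an imprinted gene whose RNA restrains growth, 20 (12.2 to 30.9) and 16 (9.1 to 26), with local density 4.52 and 3.67 times the genome average. MIAT had 12 reads (6.2 to 21) at its stop in overexpressing cells and no summit within 1000 bp in control, where the nearest stood 1244 bp from a gene end. At the 4 genes with a summit in both libraries the counting intervals overlapped.

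Of the 24 isolated host genes of small RNAs, 14 had a summit in both libraries and 1 in control alone, where 16.9% and 10.7% of all isolated lncRNA genes did. The placement means for this list were 3.2 genes in control and 1.9 in overexpressing cells. By reads, 8 of the 14 were higher in control and 6 in overexpressing cells, and over the genome average of each library 4 and 10 were. The summits of the libraries lay within 100 bp of each other at 5 of the 14. MIR17HG, host of the miR-17 cluster that promotes proliferation, had 11 reads (5.5 to 19.7) in control against 20 (12.2 to 30.9) in overexpressing cells. MIRLET7A1HG, host of let-7 microRNAs that restrain growth, had 7 (2.8 to 14.4) and 22 (13.8 to 33.3), at summits 616 and 342 bp from its start. MIR31HG had 10 and 18 at summits 140 bp apart, and SNHG33 had 14 (7.7 to 23.5) and 20 (12.2 to 30.9). MIR34AHG, host of the p53-induced miR-34a, had 18 (10.7 to 28.4) and 17 (9.9 to 27.2). MIR3142HG, host of miR-146a, was higher in control, with 24 (15.4 to 35.7) against 11 (5.5 to 19.7). The counting intervals in reads overlapped at each of these 6, at MIRLET7A1HG only narrowly. Divided by the genome averages, those of MIRLET7A1HG would lie apart, but its summits are 274 bp apart and thus at different positions. The small nucleolar RNA hosts SNHG5, SNHG26, SNHG27 and SNHG33 each had a summit near their start in both libraries, with 10 to 15 reads in control and 13 to 20 in overexpressing cells. Fewer reads in overexpressing cells were also found at MIR646HG, with 14 and 9, MIR548XHG, with 12 and 8, and MIR155HG, with 11 and 10, while MIR205HG had 10 and 11. MIR9-1HG had 11 reads (5.5 to 19.7) in control and no summit within 1000 bp in overexpressing cells, where an equal peak would have been called with a probability of 0.865. MIR100HG, MIR99AHG, MIR181A1HG and MIR4435-2HG were among the 9 with no gene-end summit in either library.

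Of the 24 isolated genes of the cancer-associated list, 10 had a summit in both libraries, 2 in control alone and 12 in neither, where 16.9%, 10.7% and 67.57% of all isolated lncRNA genes did. The placement means for this list were 3.4 genes in control and 1.9 in overexpressing cells. DLEU1 had the largest ratio between libraries on this list. Its start had 14 reads (7.7 to 23.5) in control against 35 (24.4 to 48.7) in overexpressing cells, at summits 558 and 505 bases upstream. The local density there was 1.67 and 3.25 times the genome average. LINC00673 had 17 (9.9 to 27.2) and 27 (17.8 to 39.3) at summits 575 bp apart, which are different positions, and NBAT1, a gene known from neuroblastoma, 11 (5.5 to 19.7) and 16 (9.1 to 26). PVT1, the neighbour of MYC, had 16 (9.1 to 26) and 19 (11.4 to 29.7). SCHLAP1, known from prostate cancer, had 21 (13 to 32.1) and 17 (9.9 to 27.2). DLEU2, the host of miR-15a and miR-16, had 11 (5.5 to 19.7) and 10 (4.8 to 18.4) near its stop. LUCAT1 and SAMMSON had 12 reads each in control and 13 and 10 in overexpressing cells. LINC00958 and PCAT1 had 9 (4.1 to 17.1) and 12 reads (6.2 to 21), in control alone. The 12 genes without a summit included CCAT1, HULC, BANCR and CYTOR.

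Of 6 isolated genes on the list of endometrium and oestrogen, LINC02381 and MEG3 had a summit, each in both libraries, against placement means of 0.9 and 0.5 genes. With so few genes this count cannot be set apart from the 27.6% and 21.73% of all isolated lncRNA genes. LINC02381 had 27 reads (17.8 to 39.3) in control against 35 (24.4 to 48.7) in overexpressing cells, with local density 4.71 and 4.68 times the genome average. LINC01016, LINC01320, LINC01541 and TUSC7 had no gene-end summit in either library. Of 9 developmental genes, MEG3 and LINC01116 had one in both libraries, against placement means of 1.2 and 0.7, which is again near the share of all isolated lncRNA genes. LINC01116, beside the HOXD cluster, had 11 reads (5.5 to 19.7) in control and, at a summit 669 bp away, 22 (13.8 to 33.3) in overexpressing cells. SOX2-OT, RMST and LINC-ROR were among the 7 without.

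**Figure D5:**
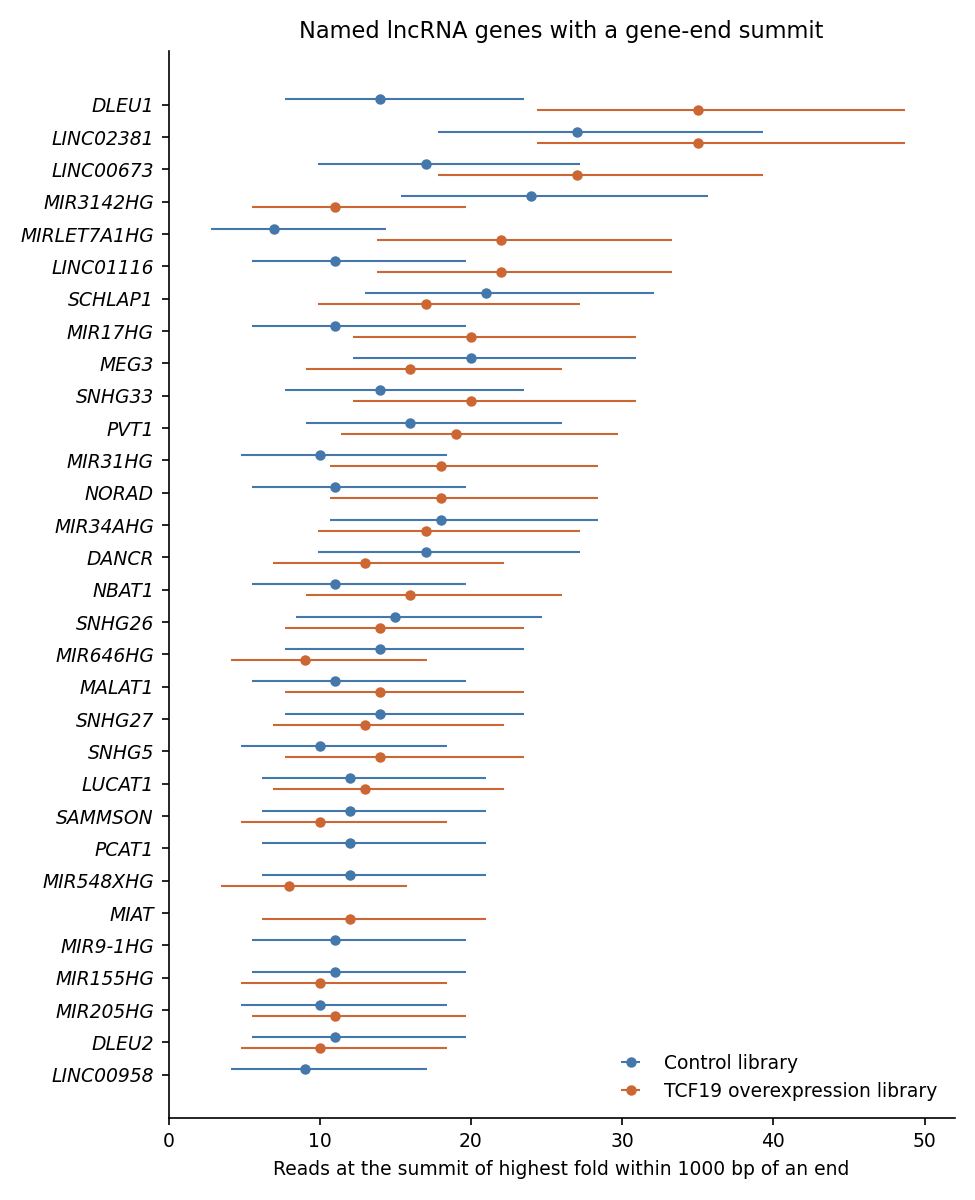
Reads at the summit of highest fold within 1000 bp of an end (horizontal axis) for the known isolated lncRNA genes with a summit that are reported by name, by library (1 each), ordered by the higher value. Bars are exact 95% Poisson intervals. At DLEU1 the intervals of the libraries, 7.7 to 23.5 and 24.4 to 48.7, do not overlap. Divided by the genome averages, intervals lay apart with overexpression higher at 0.254% of paired summits of isolated lncRNA genes and 0.334% of all pairs.

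Where summits of the libraries lay within 100 bp of each other, their heights could be set side by side, each over the genome average of its library. At 786 such pairs the overexpression value was higher in 483 (61.45%, 58 to 64.79), with a median log2 ratio of 0.15 (quartiles -0.17 and 0.42). Over all 39491 pairs of chromosomes 1 to 22 the share was 58.8% and the median log2 ratio also 0.15. Pairs at isolated lncRNA genes as a whole therefore stood close to all pairs. At the 136 pairs at CpG-rich starts the overexpression value was higher in 75.74% (67.89 to 82.17), with a median log2 ratio of 0.28. At the 198 pairs at other starts it was higher in 61.62% (54.68 to 68.11), with a median of 0.07, and at the 119 pairs at stops in 51.26% (42.38 to 60.06). Pairs at CpG-rich starts of coding genes, or of lncRNA genes near them, were not examined. Whether the share at CpG-rich starts is particular to isolated lncRNA genes was thus not tested. The counting intervals were also divided by the genome average of their library. They then lay apart with the overexpression library higher at 2 of the 786 pairs (0.254%), DLEU1 and LOC105369579. This was not above the 0.334% of all pairs. With control higher they lay apart at 0 pairs, against 0.043% of all pairs. LOC105369579 had 6 reads (2.2 to 13.1) in control against 21 (13 to 32.1) in overexpressing cells, intervals that just overlap as reads.

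Among genes with a symbol other than a placeholder, those of highest fold in the overexpressing cells alone were LINC02815, LINC02504, KCNMB2-AS1, LINC00880, LINC02801 and LINC02684. LINC02815 (chromosome 1, 229087100 to 229154725) had 21 reads (13 to 32.1) and an 8.03-fold enrichment 971 bp from its stop, and the nearest control summit stood 1250 bp from a gene end. LINC02504 (chromosome 4, 171289493 to 171298299) had 18 reads (10.7 to 28.4) 85 bp from its higher end, and the nearest control summit stood 164767 bp from a gene end. KCNMB2-AS1 (chromosome 3, 178525467 to 178860405) had 18 reads (10.7 to 28.4) 2 bp from its higher end. LINC02684 was the 1 of the 6 with a start known to be CpG-rich, with 15 reads (8.4 to 24.7) 205 bp from it. LINC02504, KCNMB2-AS1 and LINC00880 had no start sequence and could not be classed. The nearest control summit stood 1664 bp from a gene end at LINC02684 and 2006 bp at LINC00880. An equal peak would have been called in control with a probability of at least 0.997 at each of the 6. They were chosen by their fold, so these probabilities are high by selection.

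Those of highest fold in control alone were FAM230B, FAM247A, LINC00383, LINC02295, LINC01120 and LINC01312. FAM230B and FAM247A on chromosome 22 shared 1 summit of 18 reads (10.7 to 28.4) at 21192510, and both belong to families with near-identical copies, which leaves uncertain where its reads came from. LINC00383 (chromosome 13, 69222346 to 69322101) had 16 reads (9.1 to 26) and LINC02295 (chromosome 14, 98135987 to 98166733) 17 (9.9 to 27.2), the latter 178 bp from its start. LINC01312 had 17 reads (9.9 to 27.2) near its stop, with an overexpression summit 1026 bp from a gene end, just beyond the window. None of the 6 had a start known to be CpG-rich. An equal peak would have been called in overexpressing cells with a probability of at least 0.994 at each, again high by selection.

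Among genes in both libraries without a placeholder symbol, the 6 with the highest peaks were LINC01667, CYKILR, LINC00537, LINC03126, MYG1-AS1 and LINC03086, and at the first 5 local density was above 3 times the genome average. LINC01667 (chromosome 21, 9781848 to 9821061) had 102 reads (83.2 to 123.8) in control against 67 (51.9 to 85.1) in overexpressing cells, with local density 13.5 and 13.3 times the genome average. CYKILR (chromosome 19, 36269084 to 36321291) had 73 (57.2 to 91.8) and 86 (68.8 to 106.2), 244 and 236 bp from its CpG-rich start, with local density 6.35 and 7.23 times. LINC00537 on chromosome 9 had 57 (43.2 to 73.9) and 64 (49.3 to 81.7), LINC03126 on chromosome 1 46 (33.7 to 61.4) and 47 (34.5 to 62.5), and MYG1-AS1 on chromosome 12 39 (27.7 to 53.3) and 32 (21.9 to 45.2). Local density at these 3 ran from 3.52 to 11.3 times the genome average. LINC03086 (chromosome 20, 2206928 to 2213151) had 30 reads (20.2 to 42.8) in each library near its start, with local density 2.93 and 2.9 times.

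LOC124904719, LOC107985340 and LOC105373022 lay just inside the 10 kb limit, at 10007, 10008 and 10013 bp from a coding gene, and LOC105374381, LOC102725082 and LOC124901729 just outside, at 9998, 9987 and 9983 bp. Of the first 3, LOC105373022 had a summit in both libraries and LOC124904719 in control, and of the last 3 none had one. The nearest summit stood in the last 100 bp of the 1000 bp window at 159 genes in control and 99 in overexpressing cells, and up to 100 bp outside the window at 121 and 100. LINC01018 and LOC102724520 had a control summit at exactly 1000 bp, and LINC01094 and LINC03146 had theirs 1 bp outside.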

How the data were processed

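Peak lists of 2 libraries, 1 per group by the genotype label, were used as deposited. The submitters' processing notes name BWA 0.7.12, MACS2 2.1.0 and the build hg38; for settings or an input, nothing is given in the sources used here. One deposited list per library was taken as peaks called per library. The deposited values are a score, a fold enrichment (a ratio), a −log10 p-value and a −log10 q-value per summit, the last from 1.30 upward; the score was not used.

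Whole-read pileups were recovered from each summit's deposited −log10 p-value and fold (misfit at most 0.001) at 99.997% of control and 99.996% of overexpression summits; the most frequent background value served as genome average. The RefSeq gene table was that of GRCh38.p14, strand and start sequences from its promoter table (4888 and 4699 genes matched, the latter with none on chromosome 8). Placement means were computed in full, with the second end placed to the nearest 100 bp, and include assembly gaps. Wilson intervals (shares) and exact Poisson intervals (pileups) were used. The placement mean was tested on simulated data. Members, lists and comparisons were chosen with earlier results of these data known. Named were known-list genes, the 6 without a placeholder symbol of highest fold in 1 library alone or of highest lower pileup in both, and genes nearest the thresholds; LOC105369579 was named after its values were seen. Known-list genes that the text does not name are kept in the counts. Computation used Python 3.11.15, numpy 2.4.6, pandas 2.3.3 and scipy 1.17.1. The alternatives tried are given in the closing section.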

Additional observations from a re-analysis of the deposited data

How the results depend on the processing

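Of 92 alternative values, 51 stayed close to the reported one: within 1.5 times for shares of members, within the counting interval otherwise. The remaining 41 follow, control before the overexpression library; their cause was not tested beyond the construction of each alternative. With a 500 bp window, 17.12% and 14.42% of members had a summit, 10.13% in both libraries and 6.99% in control alone, at 2.12 and 3.1 times placement; with 2000 bp, 25.66% had one in both, at 1.56 and 1.98 times. With 50 kb isolation 3.2% had one in the overexpressing cells alone, at 2.01 and 2.65 times. At 4-fold or more, 14.14% and 13.61% had one, 8.16% in both and 5.98% in control alone. With equal numbers of summits, 8.8% had one in the overexpressing cells alone, then above the 7.22% of control alone. Placement ratios were 1.79 and 2.39 at low local density, 1.8 and 2.38 without members near genes of other biotypes, and 2.21 and 3.21 without placeholder symbols. They were 1.45 and 1.75 against all positions, 1.64 and 2.21 without summit-free stretches of 500 kb, and 2.29 and 3.22 against positions more than 10 kb from any gene. When shared summits had to lie within 100 bp, 18.17% had one in control alone, 9.44% in both and 12.29% in the overexpressing cells alone. Counting only peaks the other library was deep enough to call, 1.81% of all members had one in control alone and 2.01% in the overexpressing cells alone. At CpG-rich starts, by alternatives chosen after seeing the data, shares were 57.45% and 65.38% within 500 bp, 55.05% and 57.93% at low local density, 33.41% and 47.36% at 4-fold or more, and 44.71% in control with equal numbers. The overexpression ratio to placement exceeded the control ratio under each alternative run. No paired analysis was possible because each group has 1 library.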
